A study of Mus musculus with 6 samples.

Results

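Hepatocytes are held to one another by junctions along their lateral membranes, and the genes described here are 38 that encode the parts of these junctions: 10 claudins, 4 proteins of the occludin family, 3 tight junction plaque proteins, 3 junctional adhesion molecules, 4 connexins, 5 cadherins and catenins, 5 desmosome proteins, nectins and afadin (3 genes) and Ceacam1. They are defined by gene name, with no threshold on expression, but were picked with earlier results of these data known. All 38 were found among the 55450 genes counted in each library. The data are 6 bulk RNA-Seq libraries of primary hepatocytes from C57BL/6 mice, 3 prepared from undamaged liver (0 hours) and 3 from liver 48 hours after partial hepatectomy (PHx), an operation that takes out the larger part of the liver, when the remaining hepatocytes are dividing. The labels give an age of 10 to 12 weeks and a normal diet for both groups, and the study's methods describe adult males of the substrain C57BL/6J and a slightly lower age, with different mice for each preparation. The animals carried no engineered allele and received no agent. The 0-hour mice were not operated on, so surgery, anesthesia and the loss of liver mass all separate the groups, and 48 hours was the only later time in these libraries. Cells were obtained by perfusing the liver with collagenase, which frees hepatocytes by digesting the matrix and loosening the junctions themselves.

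Tight junctions seal the bile canaliculus, the narrow channel between neighbouring hepatocytes, against the blood side. Claudins form the seal and set which ions pass, occludin and its relatives join them in the membrane, and plaque proteins such as ZO-1 (Tjp1) tie them to actin. Gap junctions, built of connexins, pass small molecules and calcium signals from cell to cell, which matters in the liver because few hepatocytes receive nerve endings. Adherens junctions (cadherins with catenins, nectins with afadin) and desmosomes (desmosomal cadherins anchored through plakophilins, plakoglobin and desmoplakin to keratin filaments) give mechanical hold.

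Gene counts totalled 31419443 to 36346220 per library at 0 hours and 31684152 to 33093006 at 48 hours, so that 3 counts correspond to 0.0825 to 0.0955 CPM (reads counted on a gene, scaled to a common library total), the smallest level taken as measurable. This floor covers counting error only. Levels are given as CPM scaled by trimmed mean of M values (TMM) factors. Each gene was tested by edgeR's quasi-likelihood method, and p-values were adjusted (Benjamini-Hochberg) over the 17037 genes that had at least 10 counts in at least 3 libraries. A gene is called higher or lower at an adjusted p under 0.05. Of the 17037 genes, 21.4% were called higher and 19.3% lower at 48 hours, with a median log2 fold change of 0.00. Hepatocyte markers had by far the highest sum of the marker lists in every library: the 14 markers summed to 118687 to 136785 CPM at 0 hours and 82613 to 102749 CPM at 48 hours. Of the 14, 4 were lower, Fgb was higher and 9 did not pass, and Alb, the most abundant, went from 55171 to 72948 CPM down to 32335 to 39727 CPM. Markers of other liver cells were present at far lower sums, 256 to 403 CPM falling to 184 to 201 CPM for 11 endothelial markers, of which 10 were lower and Vwf was not called, 78.4 to 118 and 112 to 137 CPM for 10 Kupffer cell markers, and 76.8 to 125 and 70.5 to 85.0 CPM for 11 stellate cell and fibroblast markers. In the last 2 lists Marco, Cd5l, Col1a1 and Lum were higher and Reln was lower. Replicate 1 of the 0-hour group had the lowest sum of its group in these 3 lists. Cholangiocyte markers summed to 35.3 to 63.6 and 48.8 to 60.0 CPM, with 5 of the 10 under 10 counts in every library, including the defining markers Krt19, Krt7 and Epcam. Of the 5 that could be tested, 3 were higher: Spp1, by 1.51 on the log2 scale, and Muc1 (5 to 9 counts, then 32 to 36) and Prom1 (0 to 2 counts, then 12 to 37), which passed the filter only through the 48-hour libraries.

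Of the 38 junction genes, 33 could be tested, each with at least 10 counts in all 6 libraries, and 5 were too low (Cldn6, Cldn7, Cldn15, Cldn23 and Jam3). At 48 hours after PHx, 15 of the 33 were lower (45.5%) and 2 were higher (6.06%), against the 19.3% and 21.4% of all genes, and 16 did not pass. Their median log2 fold change was -0.27. The genes that fell by at least 2-fold were Ceacam1, Tjp3, Cldn1 and Gjb1, and the higher genes were Cldn14 and Marveld3. Counting only whether the libraries of the groups overlap, 16 of the 33 (48.5%) had all 48-hour libraries below all 0-hour libraries, against 25.0% of all genes, and 8 had all of them above, against 27.8% of all genes for that direction. With library size alone in place of TMM factors, the median of all genes moved to 0.20, and 9 junction genes were lower and 11 higher, which is 27.3% of the 33 lower, against 12.4% of all genes under that scaling, and 33.3% higher, against 31.2%. The lower genes then made up 45.0% of the calls instead of 88.2%, and over all genes 28.4% instead of 47.5%. Without replicate 1 of the 0-hour group, 14 were lower (42.4%) and 0 higher, against 2688 lower and 3080 higher of the 16758 genes tested. The lower genes then made up 100% of the calls, against 46.6% over all genes. DESeq2 called 4 higher (12.1%) and 15 lower (45.5%), against 20.3% and 19.2% of all genes. In bulk libraries, fewer cells of a type and less RNA per cell cannot be told apart.

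**Figure D1:**
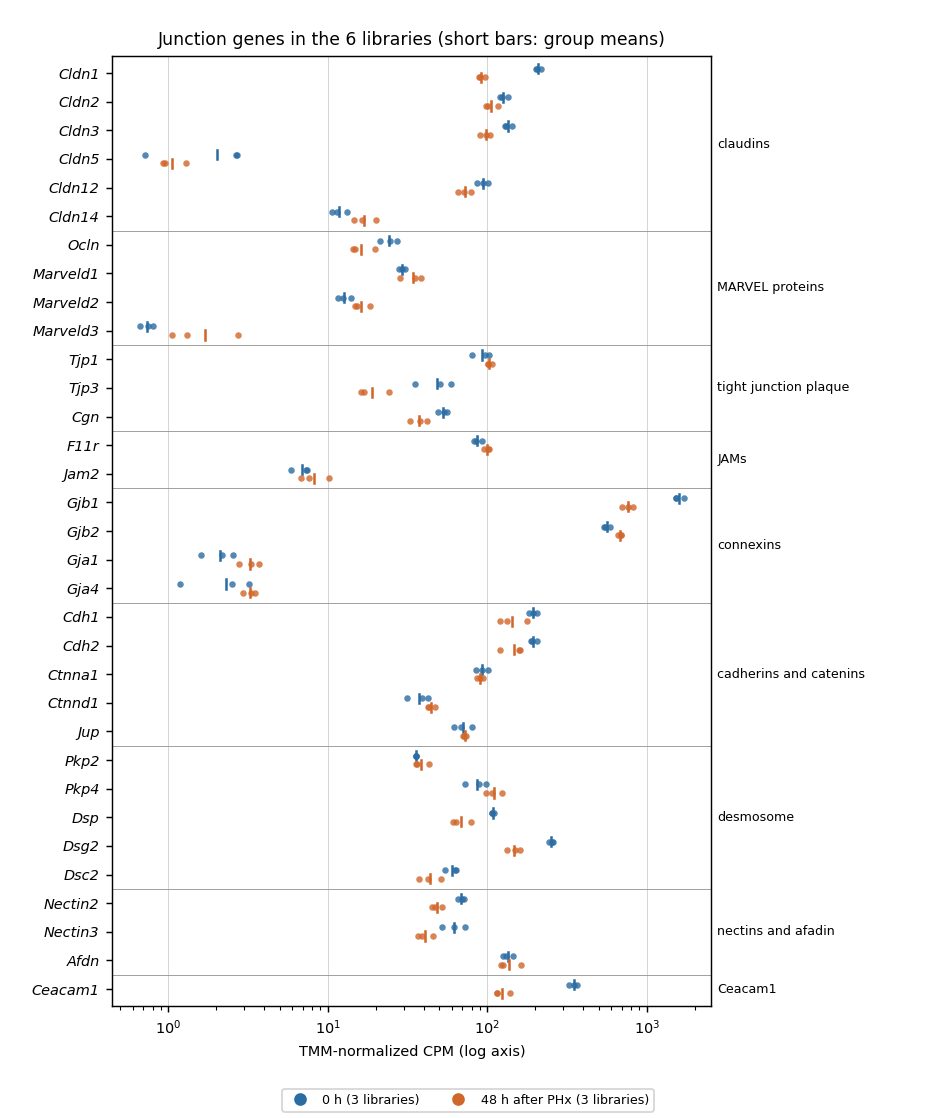
Levels of the 33 testable junction genes in the 6 libraries, in TMM-normalized CPM on a log axis, with 0-hour libraries in blue, 48-hour libraries in orange and short vertical bars for group means. Gjb1 and Gjb2 stand above the rest, and the groups separate widely for Cldn1, Tjp3, Gjb1 and Ceacam1.

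**Figure D2:**
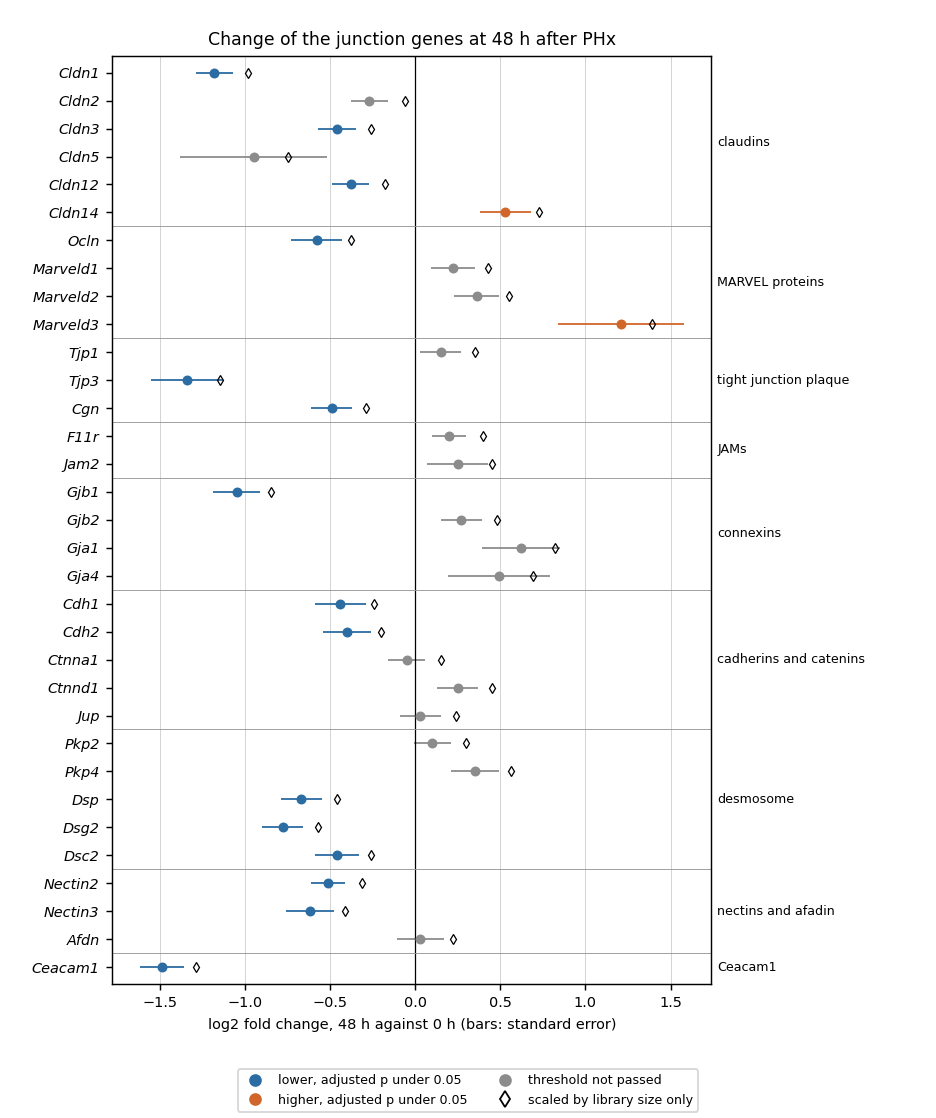
Log2 fold change at 48 hours against 0 hours for the same genes, with bars for the standard error and color for the call (3 libraries per group). Diamonds give the value with library size alone, which lies to the right of the TMM value for every gene shown, and the 4 genes farthest to the left are Ceacam1 (-1.49), Tjp3 (-1.34), Cldn1 (-1.18) and Gjb1 (-1.05).

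Promoter sequence is shown for those 4 genes and for Gjb2, the other main connexin of hepatocytes, because these are the genes on which the contrasts below turn. Each is the 250 bases before the RefSeq start nearest the annotated gene start on GRCm38.p6, written 5′ to 3′ on the gene's strand. Capitals mark CAGGTG, an E-box of the kind bound by the Snail and Zeb repressors of junction genes.
Gjb1, chrX:101376126-101376375, plus strand: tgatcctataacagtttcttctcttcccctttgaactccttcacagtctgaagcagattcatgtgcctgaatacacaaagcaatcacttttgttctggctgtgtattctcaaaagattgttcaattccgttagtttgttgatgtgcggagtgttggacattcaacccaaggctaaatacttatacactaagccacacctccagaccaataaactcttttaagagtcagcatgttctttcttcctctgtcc
Gjb2, chr14:57104703-57104952, minus strand: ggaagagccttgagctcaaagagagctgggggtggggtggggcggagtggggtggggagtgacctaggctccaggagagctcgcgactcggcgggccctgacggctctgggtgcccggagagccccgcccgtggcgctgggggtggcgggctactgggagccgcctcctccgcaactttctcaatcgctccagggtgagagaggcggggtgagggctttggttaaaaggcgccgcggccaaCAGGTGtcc
Cldn1, chr16:26371840-26372089, minus strand: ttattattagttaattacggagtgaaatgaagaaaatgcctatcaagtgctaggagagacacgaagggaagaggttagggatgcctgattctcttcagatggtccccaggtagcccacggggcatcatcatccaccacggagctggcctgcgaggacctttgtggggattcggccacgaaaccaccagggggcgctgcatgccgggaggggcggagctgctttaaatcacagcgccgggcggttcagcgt
Tjp3, chr10:81291582-81291831, minus strand: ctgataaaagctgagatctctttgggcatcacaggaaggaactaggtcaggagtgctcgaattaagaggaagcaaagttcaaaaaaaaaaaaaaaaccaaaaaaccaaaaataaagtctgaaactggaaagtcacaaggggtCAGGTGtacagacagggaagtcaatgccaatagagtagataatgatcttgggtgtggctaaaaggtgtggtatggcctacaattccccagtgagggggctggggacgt
Ceacam1, chr7:25477626-25477875, minus strand: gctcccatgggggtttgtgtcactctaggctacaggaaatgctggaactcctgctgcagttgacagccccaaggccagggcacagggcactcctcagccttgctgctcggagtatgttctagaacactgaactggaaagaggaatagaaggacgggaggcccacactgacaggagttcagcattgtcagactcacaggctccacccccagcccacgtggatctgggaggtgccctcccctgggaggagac
The Gjb2 window holds the E-box 9 bases before the start (offset -9) and the Tjp3 window holds it at offset -108, while the windows of Gjb1, Cldn1 and Ceacam1 printed here hold none. RefSeq gave 41 windows of 300 bases (250 before and 50 after a start) for 28 of the 38 genes, without Cldn23, Dsc2, Jam2, Marveld3, Dsg2, Ctnna1, Cdh1, Cdh2, Jam3 and Pkp2. CAGGTG on either strand was in 16 of the 41 windows (39.0%), against 20.2% of all 32851 promoter windows of the same length. Counted by gene, 13 of the 28 (46.4%) had it in at least 1 window, against 22.6% of all 27025 genes with windows. The junction genes had more windows per gene (41 for 28, against 32851 for 27025), which can raise a count by gene. Windows of a gene can also overlap, and those of Marveld2 share a CAGGTG site, as do those of Ocln. Of the 11 lower genes with windows, 6 had CAGGTG (Cldn3, Dsp, Gjb1, Nectin2, Ocln and Tjp3), a share close to that of all 28. In Gjb1 it lay before a start farther downstream than the window printed. GGAATG, the core bound by TEAD factors, was in 8 windows (19.5%, against 14.7% of all), and TGANTCA, bound by AP-1, in 3 (7.32%, against 7.81%). None of these 3 motifs contains another, and a match describes letters only.

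The claudins were lower in sum at 48 hours, but not evenly. The summed level of the 10 claudins, in CPM per kilobase of exon so that genes can be compared, went from 218 ± 1.60 (SD, n = 3) at 0 hours to 155 ± 8.36 at 48 hours, 71.0% of its start. Cldn1, a barrier-forming claudin, had 205, 204 and 218 CPM in the 0-hour libraries and 89.4, 96.7 and 90.1 CPM in the 48-hour libraries. Every 48-hour library lay far below every 0-hour library, and the fall was 1.18 ± 0.11 on the log2 scale (standard error here and below for fold changes; adjusted p = 1.53e-05, edgeR). Cldn3, also barrier-forming and the claudin with the highest level per kilobase, had 144, 129 and 132 CPM at 0 hours and 99.0, 105 and 89.9 CPM at 48 hours. Its groups were also apart, by a smaller step (log2 fold change -0.46 ± 0.11, adjusted p = 0.0077, edgeR; -0.26 and not called with library size alone). Cldn12 ran from 87.0 to 102 CPM and then from 66.2 to 78.9 CPM. Its fall of 0.38 (adjusted p = 0.0198, edgeR) was not called with library size alone or without replicate 3 of the 0-hour group, replicate 1 or replicate 2 of the 48-hour group, where adjusted p was 0.0646 to 0.275.

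Cldn2, which forms a pore for cations and water rather than a seal, was 120 to 136 CPM at 0 hours and 97.9 to 117 CPM at 48 hours. Its groups did not overlap, and the difference of -0.27 ± 0.11 did not pass (adjusted p = 0.087, edgeR). Cldn14, a cation-blocking claudin, moved the other way, from 10.6, 13.3 and 11.5 CPM to 20.0, 14.6 and 16.5 CPM. All 48-hour libraries were above all 0-hour libraries and the gain was 0.53 ± 0.15 (adjusted p = 0.0155, edgeR), but the call was lost without replicate 1 or 3 of the 0-hour group or replicate 1 of the 48-hour group (adjusted p = 0.0535 to 0.0709). Within the claudin sum, Cldn3 held a like share at both times, 49.2% ± 2.62 and 50.3% ± 1.52. Cldn1 went from 19.8% ± 0.668 to 12.3% ± 0.327 and Cldn14 from 2.54% ± 0.309 to 5.20% ± 0.963, while Cldn2 went from 17.5% ± 1.26 to 20.4% ± 0.897. Every 48-hour library lay below every 0-hour library for the Cldn1 share and above for the Cldn14 and Cldn2 shares.

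Cldn5, the claudin of endothelial cells, was at 0.715, 2.68 and 2.71 CPM at 0 hours and at 0.951, 0.924 and 1.29 CPM at 48 hours. The 0-hour library with the low value is the one with the lowest endothelial marker sum (256 CPM). The groups overlapped and the difference of -0.95 ± 0.43 did not pass (adjusted p = 0.0998, edgeR), but without that library it was -1.36 (adjusted p = 0.00363). The part that endothelial cells have in it was not tested. Cldn6, Cldn7, Cldn15 and Cldn23 had at most 14 counts in any library, and the test without a filter on low counts gave them adjusted p of 0.201 to 0.713.

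Occludin and its relatives (the MARVEL proteins) did not move together. Ocln, which was detected at 24.5, 21.2 and 27.2 CPM at 0 hours, was at 19.7, 14.8 and 14.4 CPM at 48 hours. The groups lay apart by a small margin, with a fall of 0.58 ± 0.15 (adjusted p = 0.0113, edgeR) that missed the threshold without replicate 2 of the 48-hour group (adjusted p = 0.0527). Marveld3, another tight junction member of the family, rose from 0.750, 0.806 and 0.663 CPM to 2.76, 1.06 and 1.31 CPM. The gain of 1.21 ± 0.37 (adjusted p = 0.0256, edgeR) rested on low counts and largely on 1 library: without replicate 1 of the 48-hour group it was 0.68 and not called (adjusted p = 0.117), and without any of the 0-hour libraries it was not called either (adjusted p = 0.0548 to 0.0798). Marveld2 (tricellulin), which closes the corners where several cells meet, had 14.0, 12.5 and 11.6 CPM and then 18.5, 14.8 and 15.3 CPM, above in every library but short of the threshold (adjusted p = 0.0566, edgeR). Marveld1, the family member with the highest level per kilobase, had 29.4, 28.0 and 30.4 CPM and then 28.4, 35.4 and 38.8 CPM, and its groups overlapped. The summed level of the 4 genes was 16.5 ± 0.932 and 17.1 ± 0.624 CPM per kilobase, and occludin's share of it was 34.7% ± 2.62 and then 22.5% ± 3.58.

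The plaque under the tight junction changed in make-up. Tjp3 (ZO-3), a scaffold found in epithelia, had 59.7, 35.2 and 50.6 CPM at 0 hours and 24.2, 17.0 and 16.1 CPM at 48 hours. Its 0-hour libraries were spread widely, yet the lowest of them was still above the highest 48-hour library, and the fall was 1.34 ± 0.21 (adjusted p = 0.000514, edgeR). Cgn (cingulin), which links the plaque to actomyosin, fell from 49.0 to 56.1 CPM down to 32.9 to 42.3 CPM (log2 fold change -0.49 ± 0.12, adjusted p = 0.0073, edgeR; adjusted p = 0.0545 with library size alone). Tjp1 (ZO-1), the widely used scaffold of the same family as Tjp3, was at 80.3 to 103 CPM and 101 to 107 CPM and did not pass (0.15 ± 0.12, adjusted p = 0.352). Per kilobase, Tjp3 was the highest of the 3 at 0 hours, with 38.2% ± 4.27 of their sum against 35.5% ± 2.34 for Tjp1, a difference within the spread. At 48 hours Tjp1 had 53.9% ± 3.22 and Tjp3 20.8% ± 2.84, and these shares lay well apart in every library.

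Junctional adhesion molecules, immunoglobulin-like proteins beside the claudins, were not called. F11r (JAM-A), which made up 96.5% ± 0.432 of the group's level per kilobase at 0 hours, had 85.3, 82.6 and 92.7 CPM and then 103, 101 and 95.5 CPM. The 48-hour libraries were all above, by 0.20 ± 0.10 (adjusted p = 0.147, edgeR). Jam2, a form known from endothelium, was at 5.93 to 7.42 and 6.80 to 10.2 CPM and its groups overlapped. Jam3 had 2, 3 and 6 counts at 0 hours and 21, 11 and 9 counts at 48 hours and was below the filter; tested without it, the difference was 1.71 (adjusted p = 0.022). A gene on the opposite strand, Gm48796, covers 36.2% of its exon bases and went from 3 to 5 counts up to 37 to 42 counts, and without knowledge of strand in the counting the reads of these genes cannot be told apart.

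The balance of the hepatocyte connexins was different at 48 hours in every library. Gjb1, the main connexin of hepatocytes and the most abundant junction gene here per kilobase, had 1530, 1528 and 1719 CPM at 0 hours and 703, 827 and 770 CPM at 48 hours. The groups were far apart, with a fall of 1.05 ± 0.14 (adjusted p = 0.000199, edgeR). Gjb2, the connexin that joins Gjb1 in hepatocyte gap junctions and is denser around portal tracts, had 552, 540 and 593 CPM and then 689, 659 and 689 CPM. Every 48-hour library was above every 0-hour library, but the gain of 0.27 ± 0.12 did not pass (adjusted p = 0.1, edgeR; adjusted p = 0.0437 with DESeq2 and 0.0109 with library size alone). The share of Gjb2 in the sum of both, computed from counts per kilobase and so independent of the scaling between libraries, was 20.4%, 20.0% and 19.7% at 0 hours and 41.0%, 36.1% and 38.8% at 48 hours. It was higher in 3 of 3 libraries, with means of 20.0% ± 0.350 and 38.6% ± 2.46 and a difference of 18.6 percentage points (exact permutation test, two-sided, p = 0.1; with 3 libraries against 3 no smaller p is possible). There were 3.99 Gjb1 units for each Gjb2 unit at 0 hours and 1.59 at 48 hours. The level of all 4 connexins together went from 1168 ± 75.9 to 734 ± 30.4 CPM per kilobase, 62.8% of its start.

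**Figure D3:**
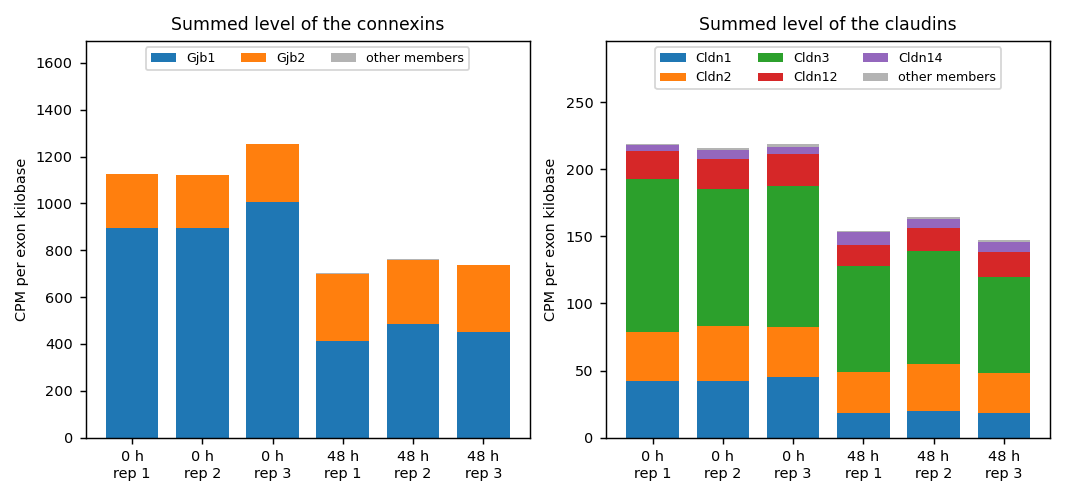
Stacked bars of the summed level of the connexins (left) and the claudins (right) in each of the 6 libraries, in CPM per kilobase of exon, with a color for each gene and gray for the remaining low members. The connexin bars go from 1122 to 1255 at 0 hours to 701 to 761 at 48 hours, and the loss is in the Gjb1 segment, while among the claudins the Cldn1 and Cldn3 segments shrink and the Cldn14 segment grows.

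The remaining connexins are known from other liver cells and were at far lower levels. Gja1, found in nonparenchymal and bile duct cells, had 1.60, 2.19 and 2.56 CPM and then 3.71, 2.80 and 3.29 CPM. Its groups did not overlap, and the gain of 0.62 ± 0.23 lay at the threshold (adjusted p = 0.0518 with edgeR, 0.0492 with DESeq2 and 0.0483 with limma-voom). The part of bile duct or other nonparenchymal cells in Gja1 was not tested. Gja4, a connexin of vessel endothelium, had 1.19, 3.23 and 2.50 CPM and then 3.30, 3.50 and 2.97 CPM. Here too replicate 1 of the 0-hour group was the low library, the groups overlapped and the difference did not pass (0.49 ± 0.30, adjusted p = 0.224). The endothelial marker sums were 256 CPM in that library and 389 to 403 CPM in the other two, and the part of endothelial cells in Gja4 was not tested.

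Both cadherins fell, and the catenins did not pass. Cdh1 (E-cadherin), which per kilobase was the highest of the group, had 206, 184 and 195 CPM at 0 hours and 178, 121 and 133 CPM at 48 hours. Replicate 1 of the 48-hour group came close to the 0-hour libraries without reaching them, and the fall was 0.44 ± 0.15 (adjusted p = 0.0389, edgeR). Cdh2 (N-cadherin), which hepatocytes carry beside E-cadherin, had 189, 205 and 191 CPM and then 120, 159 and 162 CPM. Here replicate 1 of the 48-hour group was the lowest library, and the fall was 0.40 ± 0.14 (adjusted p = 0.0367, edgeR). Both calls are near the threshold: Cdh1 lost its call with library size alone (adjusted p = 0.175) and without replicate 1 or 3 of the 0-hour group or replicate 2 or 3 of the 48-hour group (0.0831 to 0.16), and Cdh2 with library size alone (0.336) and without any of the libraries but replicate 3 of the 48-hour group (0.0531 to 0.109). The share of Cdh1 in the sum of both per kilobase was 65.8%, 61.3% and 64.3% at 0 hours and 72.4%, 57.2% and 59.1% at 48 hours. The 48-hour libraries fell on both sides of the 0-hour libraries, with means of 63.8% ± 2.28 and 62.9% ± 8.26 and a difference of -0.933 percentage points (two-sided exact permutation test, p = 0.9). Its sign turned when any of 3 libraries was left out.

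None of the catenins under these cadherins was called. Ctnna1 (alpha-catenin), the link to actin, had 101, 85.1 and 93.5 CPM and then 90.1, 85.9 and 94.0 CPM (log2 fold change -0.05 ± 0.11). Jup (plakoglobin), shared by adherens junctions and desmosomes, had 68.8, 62.3 and 81.0 CPM and then 71.0, 74.0 and 71.9 CPM (0.03 ± 0.12). The groups overlapped for both genes, and the sign of both differences turned under other settings. Ctnnd1, the catenin that holds cadherins at the surface, was at 31.4 to 42.4 and 42.9 to 47.2 CPM (0.25 ± 0.12, adjusted p = 0.136). Another annotated gene, Gm28635, overlaps 61.2% of the exon bases of Ctnnd1 on the same strand and had 0 counts in every library, so reads there could have been set aside as ambiguous and its level may be understated. With library size alone Ctnnd1 was called higher.

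In desmosomes the membrane cadherins and desmoplakin fell, and the plakophilins Pkp2 and Pkp4 did not pass. Dsg2, a desmosomal cadherin and the desmosome gene with the highest level per kilobase, had 245, 258 and 257 CPM at 0 hours and 133, 150 and 160 CPM at 48 hours. The groups were well separated, with a fall of 0.78 ± 0.12 (adjusted p = 0.000451, edgeR). Its partner cadherin Dsc2 went from 54.1 to 64.0 CPM down to 37.4 to 51.3 CPM, a fall of 0.46 ± 0.13 (adjusted p = 0.017, edgeR) that was not called with library size alone or without replicate 3 of the 0-hour group, replicate 1 or replicate 2 of the 48-hour group (adjusted p = 0.0535 to 0.182). Dsp (desmoplakin), the anchor for keratin filaments, had 107, 107 and 111 CPM and then 64.3, 61.0 and 79.6 CPM. Its 0-hour libraries were close to one another and all above the 48-hour libraries, and the fall was 0.67 ± 0.12 (adjusted p = 0.00148, edgeR). Of these plakophilins, which sit between cadherin tails and desmoplakin, Pkp2 was at 35.9 ± 0.253 and 38.5 ± 4.15 CPM (SD) with overlapping groups. Pkp4, also found at adherens junctions, was at 72.3 to 98.1 and 98.1 to 124 CPM (0.35 ± 0.14, adjusted p = 0.0688), and its lowest 48-hour library stood next to its highest 0-hour library. As shares of the 5 genes per kilobase, Dsg2 went from 40.8% ± 1.38 to 29.9% ± 0.998 and Pkp4 from 20.1% ± 2.89 to 32.3% ± 0.980. At 48 hours every library had a larger share for Pkp4 than any had for Dsg2.

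Nectins, which start cell contacts before the cadherins gather, fell as well. Nectin2 had 69.4, 71.2 and 66.0 CPM at 0 hours and 47.5, 45.3 and 52.3 CPM at 48 hours. The groups lay apart, with a fall of 0.51 ± 0.10 (adjusted p = 0.00234, edgeR). Nectin3 had 52.5, 61.8 and 73.0 CPM and then 37.0, 38.9 and 46.1 CPM, a fall of 0.62 ± 0.14 (adjusted p = 0.00504, edgeR). Afdn (afadin), which ties nectins to actin, had 146, 132 and 125 CPM and then 164, 122 and 125 CPM and did not pass (0.03 ± 0.14). Its groups overlapped and its sign turned under other settings.

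Ceacam1, an adhesion molecule of the canalicular membrane that also takes part in insulin clearance by the liver, showed the largest fall of the 33 genes. It had 352, 327 and 367 CPM at 0 hours and 116, 116 and 140 CPM at 48 hours. No 48-hour library came near the 0-hour range, and the fall was 1.49 ± 0.13 (adjusted p = 1.08e-05, edgeR), to 35.6% of the 0-hour mean. Its close relative Ceacam2 had 28 to 34 counts in every library, against at least 3896 counts for Ceacam1. How many reads match both genes is not known from these counts.

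Among the 17 called genes, 8 kept their call under all 14 alternative settings of scaling, filter, test and libraries: Cldn1, Tjp3, Gjb1, Dsp, Dsg2, Nectin2, Nectin3 and Ceacam1. The other 9 lost it under at least 1, and none of the 17 changed sign. Of the 16 that were not called, 11 gained a call under some setting. Cldn2 (upper quartile factors) and Cldn5 (no filter, or without 0-hour replicate 1) gained it as lower. Marveld1, Marveld2, Tjp1, F11r, Gjb2, Gja1, Ctnnd1, Pkp2 and Pkp4 gained it as higher with library size alone, some of them also under other settings. That scaling called 31.2% of all genes higher. By summed level per kilobase, the plaque stood at 72.9% of its 0-hour mean, the cadherins and catenins at 83.2%, the desmosome genes at 79.4%, and the nectins with afadin at 80.6%, each with all 48-hour libraries below all 0-hour libraries. With library size alone these became 83.8%, 95.6%, 91.6% and 92.5%, and the libraries overlapped. The claudins (81.7%), the connexins (72.4%) and Ceacam1 (41.0%) stayed below in all libraries under that scaling. The MARVEL proteins stood at 104% with overlapping libraries and at 119% with all 48-hour libraries above when scaled by library size alone. The junctional adhesion molecules stood at 115% with TMM factors and 132% with library size alone, with all 48-hour libraries above.

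A list of 55 further junction genes was drawn from general knowledge, with earlier results of these data known. It had 36 that could be tested, of which 14 were higher and 8 lower. Leaving out each library in turn gave 9 to 13 higher and 4 to 8 lower. Pkp1 and Panx1 passed the filter on low counts only through the 48-hour libraries. Of the 34 genes left without them, a count made after seeing the data, 12 were higher (35.3%) and 8 lower (23.5%), with a median of 0.01, against 21.4% and 19.3% of all genes. With library size alone, which called 31.2% of all genes higher and 12.4% lower, 17 of the 36 were higher (Pkp1 and Panx1 among them) and only Dsg1c was lower. Among the desmosome and keratin genes, leaving out Pkp1, 4 of 6 were higher (Ppl, Evpl, Krt8 and Krt18) and 1 was lower. Ppl (periplakin), which binds keratin filaments to desmosomes, had 9.51, 6.77 and 14.2 CPM at 0 hours and 64.0, 59.2 and 99.9 CPM at 48 hours, far above in every library (log2 fold change 2.87 ± 0.27, adjusted p = 2.26e-05, edgeR). Krt8 and Krt18, the keratin pair of hepatocytes, rose by 1.56 ± 0.22 and 1.68 ± 0.27 (adjusted p = 0.000306 and 0.00067, edgeR). Krt8 went from 101 to 161 CPM up to 354 to 534 CPM, and Krt18 from 79.9 to 130 CPM up to 251 to 512 CPM. Both have processed pseudogenes that could take or give reads, so their levels are uncertain. Pkp1, a plakophilin of stratified epithelia, had 1, 2 and 3 counts at 0 hours and 108, 166 and 153 counts at 48 hours and entered the test only through the later time. The ratio of its summed counts, scaled for depth, was 63.8 (95% exact interval 29.1 to 175, counting error only, from 6 and 427 counts).

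On the lower side, Dsg1c, a desmosomal cadherin, had 106, 75 and 138 counts at 0 hours and 3, 15 and 21 counts at 48 hours (log2 fold change -3.18 ± 0.44, adjusted p = 0.000284, edgeR). It is 1 of several near-identical desmoglein genes in the mouse, so its counts are uncertain. Esam and Cdh5 (VE-cadherin), both junction proteins of endothelium, fell by 0.70 ± 0.24 and 0.52 ± 0.15 (adjusted p = 0.0379 and 0.0174, edgeR), beside the fall in 10 of 11 endothelial markers. The part that endothelial cells have in these values was not tested. Esam lost its call with library size alone, with a replicate block, and without replicate 2 or 3 of the 0-hour group or replicate 1 or 2 of the 48-hour group (adjusted p = 0.0609 to 0.142, edgeR), and Cdh5 lost it with library size alone and without replicate 3 of the 0-hour group or replicate 1 of the 48-hour group (0.0648 to 0.13). The 3 angiomotins, which tie tight junctions to actin and to Yap, differed in their calls. Amotl2 was at 35.1 to 39.3 and 28.9 to 40.7 CPM, with overlapping groups, and did not pass (-0.14 ± 0.14, adjusted p = 0.455, edgeR; 0.07 with library size alone). Amot rose from 18.2, 18.3 and 19.4 CPM to 32.0, 33.0 and 32.1 CPM (0.80 ± 0.10, adjusted p = 0.000119, edgeR), and Amotl1 fell from 7.70, 12.7 and 12.5 CPM to 4.84, 6.52 and 7.26 CPM (-0.82 ± 0.22, adjusted p = 0.0125, edgeR; 0.0501 with library size alone). Its low 0-hour library was again replicate 1, which had the lowest endothelial marker sum, and the part of endothelial cells in Amotl1 was not tested. Magi1, a scaffold of tight and adherens junctions, fell from 68.3 to 72.6 CPM down to 51.1 to 54.1 CPM (-0.42 ± 0.09, adjusted p = 0.00468, edgeR; 0.0877 with library size alone).

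**Figure D4:**
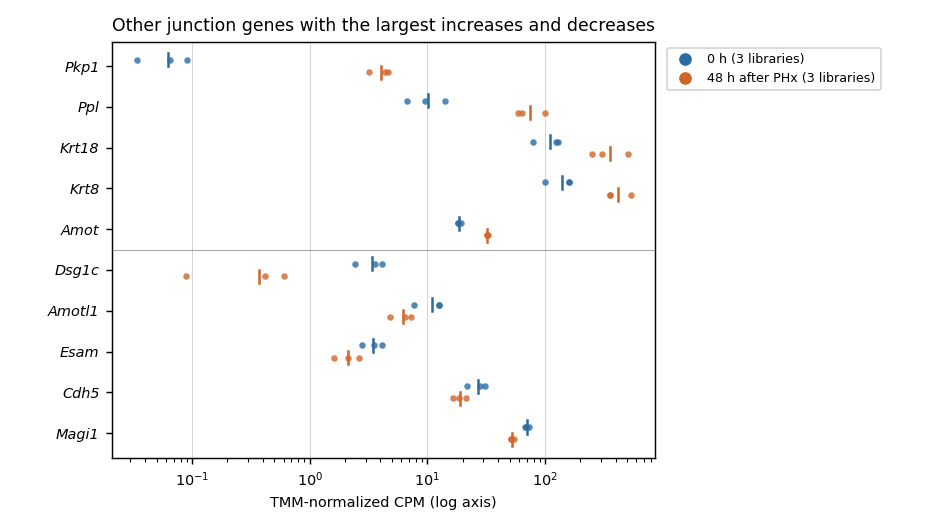
Levels in the 6 libraries of the 5 further junction genes with the largest increases (above the line) and the 5 with the largest decreases (below it), in TMM-normalized CPM on a log axis, with short vertical bars for group means. Pkp1 and Ppl show the widest steps upward and Dsg1c the widest downward, and no gene shown has overlapping groups, which the choice of these genes required.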

How the data were processed

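RNA-Seq of hepatocytes was deposited as 1 file per library holding raw read counts per gene, which the authors did not normalize. The submitters' processing notes name FastQC 0.11.5, Trim Galore 0.6.4, STAR 2.6, HTSeq 0.12.4, DESeq2 and mm10, with no settings. Whether reads were counted by strand is not given in the sources used here. Reads on no gene (24.3% to 32.7% of the reads on genes, on no gene or ambiguous) and ambiguous reads (4.27% to 5.29%) were left out. Gene identifiers were matched to GENCODE M21 for names, coordinates and exon lengths, and promoter windows came from RefSeq on GRCm38.p6.

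All 38 members and the other lists were chosen with earlier results of these data known. Groups came from the sample titles. Counts were fitted in edgeR 4.0.16 (R 4.3.3) with TMM factors (0.913 to 0.95 at 0 hours, 1.02 to 1.11 at 48 hours) and time as the only term, over genes that reached 10 counts in 3 or more libraries. The standard error is the size of the log2 fold change divided by the square root of the F statistic. CPM per kilobase divides by the bases covered by all exons of a gene. The main edgeR test was first tried on simulated counts that held far fewer changed genes than were called here. The shares, sums and other tests were not tried in this way. P-values measure the spread between libraries. Values in every library are given for called members with a log2 fold change of at least 1 in size and for the highest member of each role group per kilobase; further members were added where a comparison needed them. Of the other junction genes, the 5 largest increases and 5 largest decreases with a mean of at least 1 CPM and no overlap were named. Alternatives were RLE, upper quartile and library-size scaling, no filter, 1 CPM in 3 libraries, DESeq2 1.42.0, limma-voom (limma 3.58.1), a replicate block, and leaving out each library.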

Additional observations from a re-analysis of the deposited data

How the results depend on the processing

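Scaling by library size alone gave 11 junction genes higher and 9 lower, 1 of the other junction genes lower, 2108 of all genes lower, and a log2 ratio of -0.31 in place of -0.50 for the hepatocyte marker sum. It also gave Ctnna1 a value of 0.15, Crb3 0.18 and Amotl2 0.07. DESeq2 called 4 junction genes higher. Requiring a log2 fold change of at least 1 left 1 junction gene higher and 4 lower, 6 of the other junction genes higher and 1 lower, and 1651 and 1353 of all genes. Pkp1 and Panx1, which passed the filter on low counts only through the 48-hour libraries, are among the 6. Leaving out each library in turn gave 0 to 2 junction genes higher and 10 to 14 lower, 9 to 13 of the other junction genes higher and 4 to 8 lower, 2649 to 3395 of all genes higher and 2540 to 3166 lower, and a difference in the Cdh1 share of -5.67 to 1.91 percentage points (0.0644 without 0-hour replicate 1, 1.91 without 48-hour replicate 2 and 0.962 without 48-hour replicate 3). Pkp1 and Panx1 were counted as higher when a 0-hour library was left out and could not be tested when a 48-hour library was. The difference in the Gjb2 share stayed between 17.4 and 19.9 percentage points. Values near 0 changed sign for Ctnna1 (-0.12 to 0.00 as libraries were left out), Jup (-0.05 with upper quartile factors, -0.06 to 0.13 as libraries were left out), Afdn (-0.06 and -0.13 to 0.11) and Crb3 (-0.15 to 0.04 as libraries were left out). For these changes the cause was not tested. With the replicate number as a block, the junction genes gave 2 higher and 15 lower calls, the other junction genes 11 (Pkp1 and Panx1 among them) and 7, and all genes 3237 and 2884. Same-numbered libraries come from different mice, their deviations correlated at 0.0335, -0.0674 and -0.138, and not every library correlated best with its own number, so they were not treated as pairs. The other settings kept each count within 1.5 times. Depth limits Cldn6, Cldn7, Cldn15 and Cldn23, which had at most 14 counts in any library.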

Other observations

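The genes below, from the other junction list, were chosen after their values were seen. Mpp5 (Pals1), a scaffold of the Crumbs polarity complex, had 16.3, 12.2 and 15.5 CPM at 0 hours and 20.4, 22.0 and 19.7 CPM at 48 hours (log2 fold change 0.50 ± 0.13, adjusted p = 0.0127, edgeR), with all 48-hour libraries above. Its partner Patj went the other way, from 29.7, 28.4 and 28.9 CPM to 23.9, 21.9 and 20.8 CPM (-0.39 ± 0.10, adjusted p = 0.012, edgeR), with all 48-hour libraries below. The Mpp5 call was lost without 48-hour replicate 2 (adjusted p = 0.0517), and the Patj call with library size alone (adjusted p = 0.156) and without 48-hour replicate 2 or 3. Prkci, the atypical protein kinase C of the Par complex, rose by 0.38 ± 0.11 (adjusted p = 0.0222, edgeR), a call lost under 4 of 14 alternatives, and its partner Pard6b by 0.43 ± 0.16 (adjusted p = 0.0492, edgeR), a call lost under 11 of 14. Other members of these complexes did not pass: Pard3 had a log2 fold change of -0.23 ± 0.11 (adjusted p = 0.122, edgeR) and Crb3 of -0.03 ± 0.14 (adjusted p = 0.901, edgeR). Plekha7, an adherens junction protein that binds catenin and microtubules, had 18.8, 19.3 and 16.2 CPM and then 33.7, 30.8 and 25.4 CPM (0.73 ± 0.13, adjusted p = 0.00139, edgeR), and this call was kept under all 14 alternatives.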
